A study of Mus musculus with 12 samples.

Results

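The genes described here are 32 genes of peripheral nerve, chosen by name from the 25284 genes of the deposited count table: 22 genes of Schwann cells and myelin and 10 genes of neurons. All 32 had a row in the table, and 31 passed the filter on low counts, the exception being Fa2h, an enzyme of myelin lipid synthesis. The list was drawn up because S100b, a calcium-binding protein often used as a Schwann cell marker, was already known to be lower in AZ6983 treated mice. The comparison therefore asked whether the other nerve genes had the same pattern as S100b, or whether S100b varied with genes of fat or cartilage, which also express it.

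RNA was sequenced from the thoracic aorta of 12 male ApoE-/- mice on a C57BL/6 background, all fed a high-fat, cholesterol-enriched diet and killed at 18 weeks of age. Osmotic minipumps placed under the skin delivered AZ6983, an agonist of the alpha 7 nicotinic acetylcholine receptor (α7nAChR), to 6 mice (A1 to A6) at a daily dose of 50 µmol per kg over 8 weeks. The controls received vehicle, cyclodextrin in saline, for the same 8 weeks (6 mice, C1 to C6). Loss of ApoE and the diet were shared by both groups, and there was no group with the normal gene or with another agonist.

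Schwann cells wrap the axons of peripheral nerves, some as compact myelin around large axons and others as non-myelinating cells around bundles of thin axons. Sox10 directs the lineage and Egr2 the myelinating program, while neuregulin from the axon signals through the receptor Erbb3. Arteries receive mainly sympathetic axons in their outer layer, and these neurons make noradrenaline through the enzymes Th, Ddc and Dbh. In whole aorta, fewer nerve cells in the piece taken and less RNA per cell cannot be told apart.

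Libraries held 23810036 to 35864666 counts on genes. Smooth muscle genes, the markers of the labelled tissue, summed to 13295 to 17685 CPM (counts per 1000000 counts on genes) in controls and 10326 to 17691 CPM in AZ6983 mice. The median log2 fold change of these 7 genes was −0.01. None was called, but neither was any of the 15857 genes tested. Fat transcripts were present in every library: 13 brown fat genes summed to 3036 to 4951 CPM in controls and 2718 to 6529 CPM in AZ6983 mice. Reads on no gene were 8.02% to 12.7% of the reads in controls and 11.2% to 14.9% in AZ6983 mice. Mouse A4 held thymocyte genes, with Rag1 at 577 CPM against 0.149 to 21.3 CPM in the other 11 mice. The fold change of all 9 thymocyte genes tested was above 0 (median 3.46 on the log2 scale) and A4 was the highest mouse for each of them, while without A4 the median was 0.07.

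S100b was lower in AZ6983 mice than in controls, and this is the gene that the list was built around, so its values are a description. The level was 35.2, 46.3 and 60.1 CPM (lowest, median and highest) in controls and 16.5, 24.4 and 45.9 CPM in AZ6983 mice, with means of 46.6 ± 9.47 and 26.0 ± 10.5 CPM (SD, n = 6 per group). Mouse A5 alone reached the range of the controls, and the other 5 AZ6983 mice lay below the lowest control. The log2 fold change was −0.85 (SE 0.224, edgeR quasi-likelihood test, adjusted p = 0.447). With all 12 mice, DESeq2 on every gene gave −0.85 (adjusted p = 0.0641). Without A5 the edgeR value was −1.10 (adjusted p = 0.0487); as A5 was the only AZ6983 mouse in the control range, leaving it out fixes the lack of overlap, and these values support nothing. The gene lies at chr10:76253853-76261159 on the plus strand (mm10), where its 3′ end overlaps Dip2a on the minus strand (chr10:76259429-76345291). The strand setting of the counting is not given in the sources used here, so reads of the overlap cannot be assigned with certainty. The fold change of Dip2a was 0.04 on the log2 scale (SE 0.0733).

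The 120 bases before the RefSeq start of S100b (chr10:76253716-76253835, plus strand, GRCm38.p6, the assembly also called mm10) are shown because the comparison starts from this gene.
S100b: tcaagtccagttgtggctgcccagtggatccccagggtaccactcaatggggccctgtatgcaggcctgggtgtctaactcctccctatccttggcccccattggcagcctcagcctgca
They hold neither of the motifs searched in the promoters below, a cAMP response element and a TATA box.

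**Figure D1:**
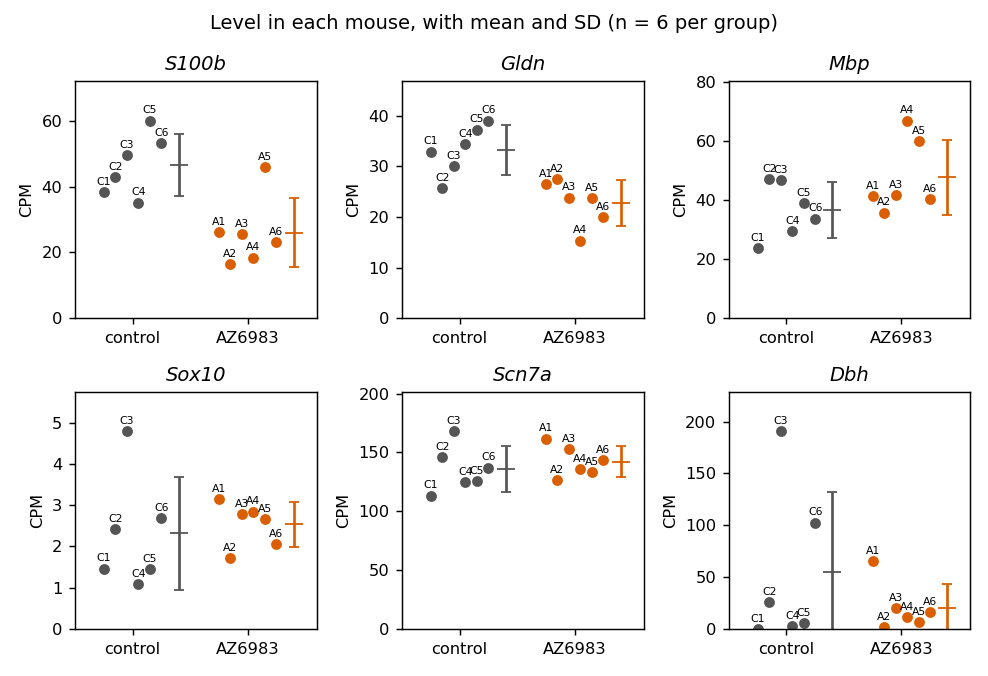
Level of 6 genes in each mouse in CPM (points, labelled C1 to C6 for control and A1 to A6 for AZ6983), with the mean and SD of each group of 6 beside the points and bars that would pass below 0 stopped at the axis. S100b and Gldn are lower in most AZ6983 mice, Mbp is highest in A4 (67.0 CPM), and Dbh runs from 0.174 CPM in C1 to 191 CPM in C3.

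None of the 31 genes tested passed a 10% false discovery rate in edgeR (adjusted p 0.447 to 0.998). The same held for all 15857 genes tested (0.0% called), so this count says nothing particular of nerve genes. At an unadjusted p under 0.05, S100b and Gldn were the members reached, both lower and both known to be lower when the list was made; among all genes tested the share was 10.2%, with 2.81% lower and 7.38% higher. DESeq2 on every gene called the same 2 members among 92 genes (0.523%). The groups overlapped for every member, against 65 genes (0.41%) that did not overlap among all tested. The fold change was above 0 for 16 members and below 0 for 15, and the median was 0.00 on the log2 scale for the members and 0.01 for all genes.

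**Figure D2:**
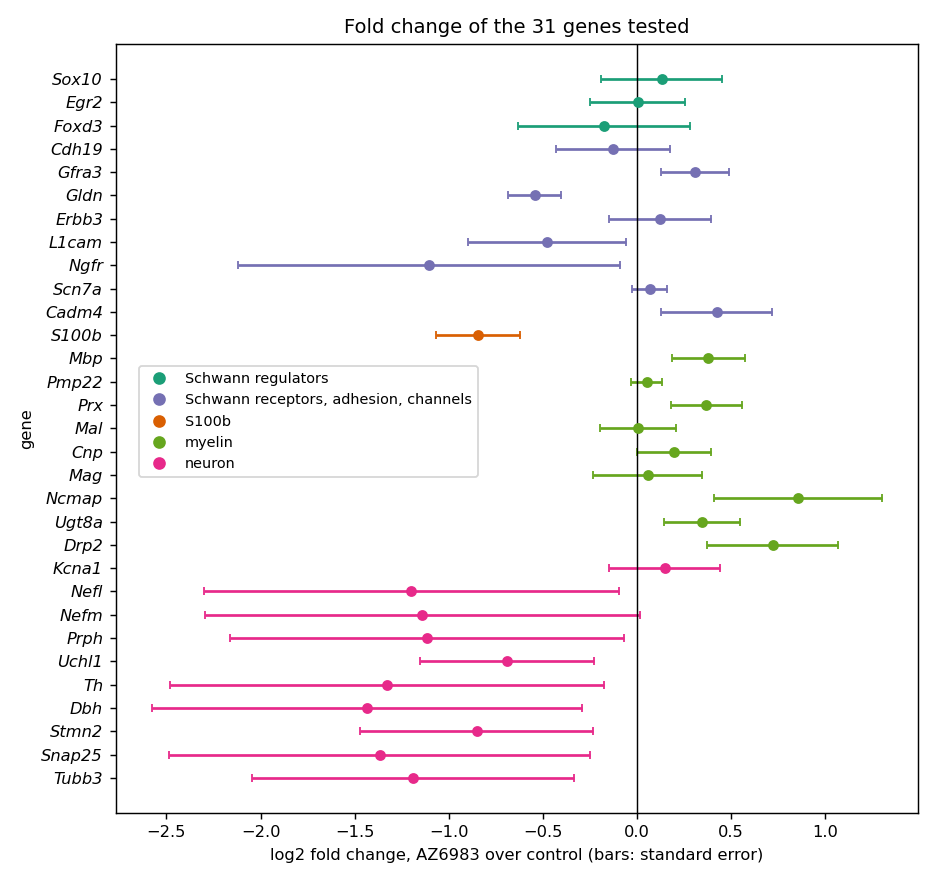
Log2 fold change of AZ6983 over control for the 31 genes tested (points) with its standard error (bars), colored by role. In this edgeR fit with TMM scaling, myelin genes lie at or above 0, neuron genes other than Kcna1 lie below 0 with wide bars, and S100b (−0.85) and Gldn (−0.54) have narrow bars below 0.

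The 3 regulators of the Schwann lineage were expressed at low levels, and their fold changes were smaller than their errors. Sox10 was 1.08, 1.94 and 4.79 CPM (lowest, median and highest) in controls and 1.73, 2.72 and 3.16 CPM in AZ6983 mice. Its control values spanned the whole AZ6983 range, and the log2 fold change was 0.13 (SE 0.324, edgeR adjusted p = 0.902). Egr2 gave 0.00 (SE 0.251) and Foxd3, which acts in the neural crest from which these cells derive, gave −0.18 (SE 0.459). A2, the mouse with the least S100b (16.5 CPM), had 1.73 CPM of Sox10, but the next lowest in S100b, A4 with 18.4 CPM, had 2.85 CPM. The lowest Sox10 values were in the controls C4, C1 and C5, which held 35.2, 38.4 and 60.1 CPM of S100b.

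Among 8 receptors, adhesion molecules and channels of Schwann cells, 4 fold changes lay above 0 and 4 below (median −0.03 on the log2 scale), and Gldn was the member with an unadjusted p under 0.05. Gldn encodes gliomedin, which Schwann cells use to gather sodium channels at nodes. It was 25.7, 33.7 and 39.1 CPM in controls (lowest, median and highest) and 15.3, 23.8 and 27.5 CPM in AZ6983 mice. Control C2 had the lowest control value and alone made the groups overlap, so the lack of overlap without it is fixed by that choice. The log2 fold change was −0.54 (SE 0.14, edgeR adjusted p = 0.447). Scn7a, a sodium channel of non-myelinating Schwann cells, was among the most abundant members and the steadiest of this group: 113 to 168 CPM in controls and 126 to 162 CPM in AZ6983 mice. Its log2 fold change was 0.07 (SE 0.0939). Cdh19, a cadherin of Schwann cell precursors, gave −0.13 (SE 0.305), Erbb3 gave 0.12 (SE 0.27), Gfra3, a receptor for artemin, gave 0.31 (SE 0.18) and the adhesion molecule Cadm4 gave 0.42 (SE 0.295).

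Ngfr, the low-affinity neurotrophin receptor, and L1cam, an adhesion molecule of axons and Schwann cells, are made by neurons as well. Ngfr was 0.488, 8.96 and 90.5 CPM in controls and 2.59, 7.90 and 35.0 CPM in AZ6983 mice. C3, C6 and A1 held the 3 highest values of both genes. The log2 fold changes were −1.10 (SE 1.02) for Ngfr and −0.48 (SE 0.421) for L1cam, and without those 3 mice they were 0.66 and 0.26. These mice were picked as the highest and 2 of them are controls, so leaving them out raises the fold change by construction, here and wherever it is given.

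Myelin genes were at or above the control level in their edgeR fold changes, 9 of 9 above 0. The median was 0.34 on the log2 scale, and 0.19 without A4, and no myelin gene passed the test. Of the 25 alternatives, Mal was below 0 in 13 and Mag in 5. Mbp, the main cytoplasmic protein of compact myelin, was 23.9, 36.5 and 47.1 CPM in controls (lowest, median and highest) and 35.9, 41.6 and 67.0 CPM in AZ6983 mice. A4 and A5 lay above every control and the other 4 AZ6983 mice within the control range. Its log2 fold change was 0.38 (SE 0.194, edgeR adjusted p = 0.52). Prx, the periaxin of myelinating Schwann cells, gave 0.37 (SE 0.189), its partner Drp2 gave 0.72 (SE 0.35), Ncmap, a small protein of the noncompact myelin membrane, gave 0.86 (SE 0.445), and Ugt8a, which makes the myelin lipid galactosylceramide, gave 0.34 (SE 0.201). Drp2 was 1.26 to 6.14 CPM in controls and 3.37 to 7.26 CPM in AZ6983 mice. C3 alone made the groups overlap, so the lack of overlap without it is fixed by that choice. Pmp22 (0.05), Mal (0.01) and Mag (0.06) were near 0 and Cnp was at 0.20 on the same scale.

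A4, the mouse with thymocyte genes, was the highest of the 12 for 6 of the 9 myelin genes tested, against 15.4% of all genes tested. Its part in the myelin values was not tested beyond leaving it out: without A4 the log2 fold changes were 0.26 for Mbp, 0.57 for Drp2 and 0.60 for Ncmap, and those of Mal (−0.03) and Mag (−0.09) were below 0. Fa2h, which was not tested, had 1 to 7 counts per mouse in controls and 3 to 26 in AZ6983 mice, with the highest in A4. Oligodendrocyte genes had at most 7 counts in any mouse and melanocyte genes at most 12, and no gene of either list passed the filter.

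Per kilobase of exon, Pmp22 was the most abundant member in controls (56.0 CPM per kilobase), followed by Uchl1 (35.6), S100b (31.4), Tubb3 (24.5) and Dbh (20.3). Scn7a followed at 18.5 CPM per kilobase, while Mbp (4.34) and Erbb3 (1.49) were lower and Sox10 (0.759) lower still. The length used is that of all annotated exons of a gene together, 8469 bases for Mbp and 1484 for S100b. It can exceed the length of the transcript present, which lowers the value per kilobase. Uchl1, Tubb3 and Dbh varied so widely that their place among these did not differ from that of their neighbors beyond the spread between mice.

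Neuron genes separated individual mice by far more than they separated the groups. Dbh, the enzyme that turns dopamine into noradrenaline, was 0.174, 15.98 and 191 CPM in controls (lowest, median and highest) and 1.69, 13.6 and 65.7 CPM in AZ6983 mice. Th, the first enzyme of the same route, was 0.174, 10.1 and 131 CPM in controls and 1.04, 8.08 and 50.1 CPM in AZ6983 mice. For both enzymes C3, C6 and A1 were the highest mice, C1 was the lowest, and the medians of the groups lay close together. In counts, Dbh ran from 5 in C1 to 5531 in C3, so the spread is not one of low counts.

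The same mice held the neuronal cytoskeleton and synapse genes. Prph, the intermediate filament of peripheral neurons, was 0.314 CPM in C1 and 101 CPM in C3. Nefl and Nefm, the light and medium neurofilaments, reached 96.8 and 34.5 CPM in C3. Nefl lies inside the longest Nefm transcript on the opposite strand of chromosome 14, so their counts are not certain to be separate. Snap25, a SNARE protein of synaptic vesicle release, had 0 counts in C1, which allows up to 3 counts, and 2725 in C3. Tubb3, neuronal beta-tubulin, was 3.03 CPM in C1 and 152 CPM in C3. C3, C6 and A1 were the 3 highest mice for 9 of the 10 neuron genes, the exception being Kcna1, and for 13 of the 32 members, against 5.35% of all genes tested. C1 was the lowest mouse for 19 members, against 13.1% of all genes tested.

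The range from the lowest to the highest mouse passed 5 on the log2 CPM scale for 8 members (Snap25, Dbh, Th, Nefl, Nefm, Prph, Ngfr and Tubb3), against 268 genes (1.69%) of all tested and a median range of 0.755. With this spread the fold changes had errors near their own size: −1.43 (SE 1.14) for Dbh, −1.33 (SE 1.15) for Th, −1.12 (SE 1.05) for Prph, −1.37 (SE 1.12) for Snap25 and −1.19 (SE 0.855) for Tubb3, with edgeR adjusted p from 0.609 to 0.700 over these 5. Uchl1, a ubiquitin hydrolase of neurons, gave −0.69 (SE 0.462), and Stmn2, a microtubule regulator of growing axons, gave −0.85 (SE 0.621). Over the 10 neuron genes the median was −1.16, with 9 below 0. In limma-voom, with all 12 mice, the fold change was above 0 for Dbh (0.15), Prph (0.07), Nefl (0.32), Nefm (0.65) and Snap25 (0.88). Leaving out 1 mouse at a time turned the direction of Nefm alone among these 9 (0.05 without C3). Without C3, C6 and A1 the fold change was above 0 for Dbh (0.37), Th (0.40), Prph (0.53), Nefl (0.63), Nefm (1.11), Snap25 (0.72) and Tubb3 (0.29), and it was −0.03 for both Uchl1 and Stmn2. Kcna1, a potassium channel found beside nodes, was 5.16 to 19.9 CPM in controls and 7.12 to 15.8 CPM in AZ6983 mice (log2 fold change 0.15, SE 0.295).

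**Figure D3:**
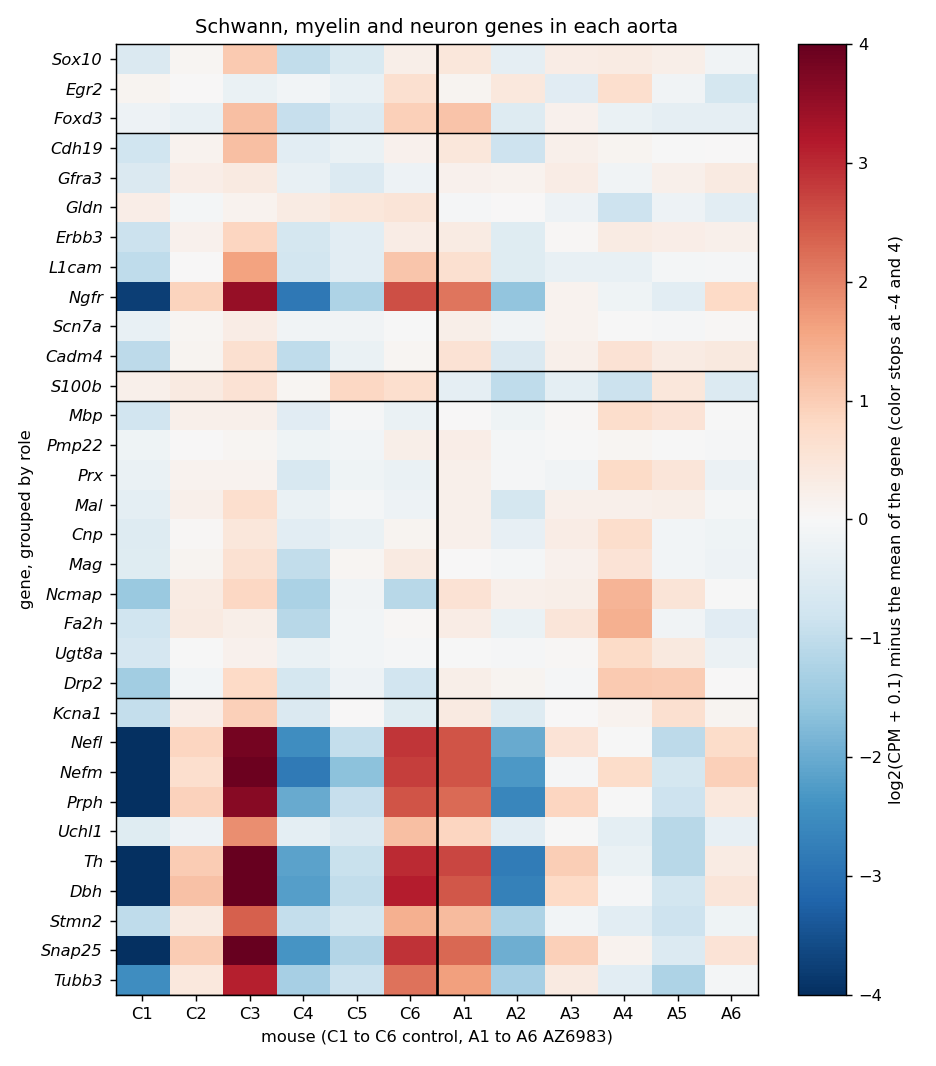
Level of the 32 genes (rows, grouped by role) in each of the 12 mice (columns), as log2(CPM + 0.1) minus the mean of the gene, with colors that stop at −4 and 4. C3, C6 and A1 are red and C1 dark blue for most neuron genes and for Ngfr, while S100b and Gldn follow neither pattern.

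The promoters of Th and Prph are shown because these neuron genes varied together over the mice and their windows hold motifs. The letters TGACGTCA (the cAMP response element, CRE, the same on both strands) and TATAAA (the core promoter box of that name, searched on both strands) were looked for in the 120 bases before the RefSeq start. The motifs do not overlap each other in letters. Capitals mark the match.
Th (chr7:142899996-142900115, minus strand): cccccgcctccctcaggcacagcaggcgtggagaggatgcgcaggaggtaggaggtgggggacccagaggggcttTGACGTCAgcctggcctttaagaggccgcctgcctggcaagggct
Prph (chr15:99055054-99055173, plus strand): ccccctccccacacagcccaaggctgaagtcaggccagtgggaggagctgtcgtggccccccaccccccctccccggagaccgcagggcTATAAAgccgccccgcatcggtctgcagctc
The CRE of Th begins at −45 and the TATA box of Prph at −31 from the start. Of the 20 members with an entry in the RefSeq table, Th was the 1 with the CRE and Prph the 1 with the TATA box. Among all 32851 windows of that length, 1.24% held the CRE and 6.34% the TATA box.

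Neuron genes outside the 32 gave like values, largely through the same mice, so they are not separate observations. Other Schwann and myelin genes lay on both sides of 0, unlike the myelin members. Of 24 other neuron genes, 18 were tested, all with fold changes below 0 (median −1.30 on the log2 scale) and none called, and 17 had C3, C6 and A1 as the highest mice. Slc6a2, the noradrenaline transporter, was 2.93 to 286 CPM in controls and 8.70 to 105 CPM in AZ6983 mice (log2 fold change −1.29, SE 0.961). Slc18a2, the vesicle monoamine transporter, gave −1.38 (SE 0.998), Syt1, the calcium sensor of vesicle release, −1.42 (SE 1.13), and Npy, a peptide of sympathetic neurons, −0.84 (SE 0.989). Without C3, C6 and A1 the values of these 4 were 0.32, 0.31, 0.39 and 0.75 in the same order. Chat and Slc18a3, the defining genes of cholinergic neurons, had at most 0.0798 and 0.111 CPM in any mouse. Of 22 other Schwann and myelin genes, 17 were tested, 9 with fold changes above 0 and 8 below (median 0.04) and none called. Among the most abundant were Ncam1 (0.00, SE 0.123), Chl1 (−0.25, SE 0.508) and Lgi4 (0.09, SE 0.21). The 5 perineurial genes gave a median of 0.23 and none was called. As no gene of all those tested was called, the lack of calls says nothing particular of these lists.

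The likeness of each gene to S100b was measured as Pearson's r of log2 CPM over the 12 mice after the group means were removed, which leaves only the variation among mice of the same group. These values describe 12 libraries, each shared by all the genes compared, and carry no test. Of all genes tested, 12.1% had r over 0.5 (median −0.03). Of the 30 other members, 1 did (Kcna1, 0.55), and the median was 0.29. Brown fat genes were the most like S100b, with 8 of 12 over 0.5 and a median of 0.58, white fat genes had 4 of 13 and 0.30, and cartilage genes 0 of 13 and 0.05. These values rested on A5, which held the most S100b and the most Ucp1 (3728 CPM) of the AZ6983 mice. Without A5, 15 of the 30 members passed 0.5 (median 0.51), against 8.68% of all genes tested (median 0.00), led by neuron genes with 8 of 10 and a median of 0.59, while brown fat genes had 1 of 12 (median −0.03), white fat genes 0 of 13 (−0.22) and cartilage genes 2 of 13 (0.11). The neuron genes are not separate observations, as 9 of the 10 had C3, C6 and A1 as their highest mice. With group means kept, r of S100b with Stmn2 was 0.32 over all mice and −0.07 without C3 and C6. How far the neuron values without A5 rest on those mice was not tested.

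**Figure D4:**
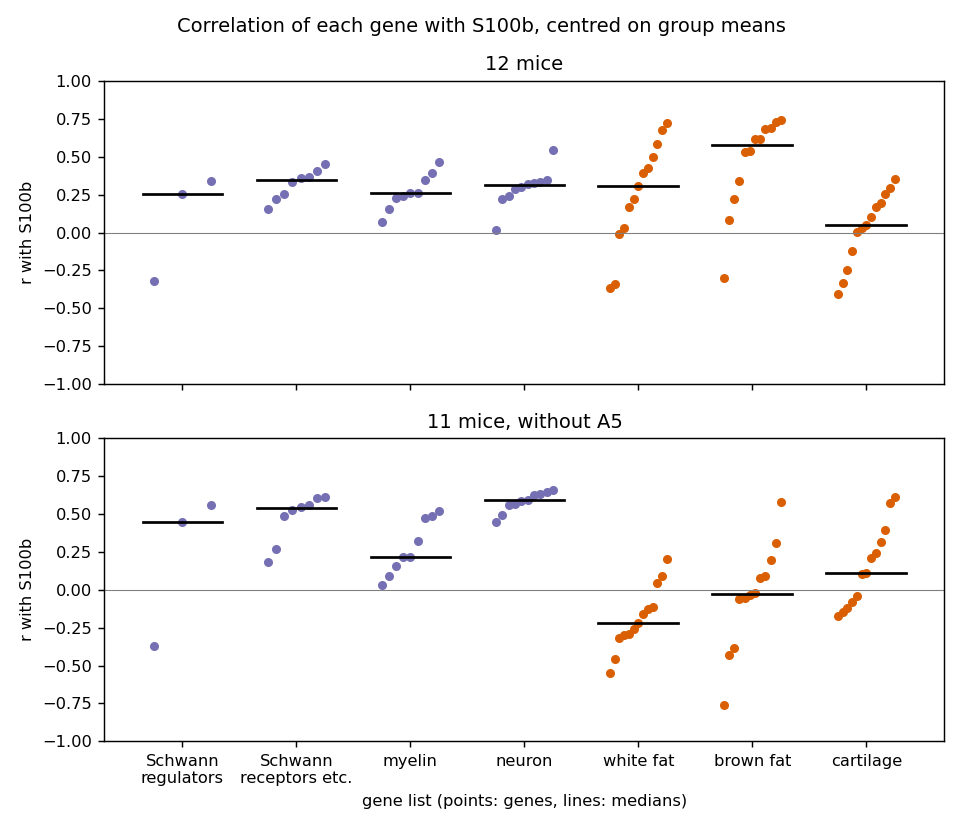
Pearson's r of each gene (points) with S100b, centred on group means, for the nerve gene groups and for white fat, brown fat and cartilage genes, over 12 mice (top) and 11 mice without A5 (bottom); lines are medians. Brown fat genes have the highest median in the top panel (0.58) and neuron genes in the bottom panel (0.59).

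The 10 genes most like S100b among those with a mean of at least 50 counts per mouse were Osbp2 (r = 0.98), Nqo2 (0.95), Rpp40 (0.94), 1110032A03Rik (0.93), Hacl1 (0.92), Nol3 (0.92), Fam57b (0.91), Cpn2 (0.91), Marc1 (0.91) and Pkm (0.90). None of them is in any gene list used here. They were picked with A5 included, and without A5 their r ran from 0.78 for Pkm to 0.96 for Osbp2. Their fold changes ran from −0.39 for Cpn2 to 0.31 for Osbp2 on the log2 scale, all smaller in size than the −0.85 of S100b. Dip2a, which overlaps S100b, had r = 0.90 (0.76 without A5) and ranked 14 of 12947 genes with all mice.

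By the same measure with Dbh as reference, a choice made after its values were seen, 26 of 30 members had r over 0.5, against 10.7% of all genes tested. The medians were 0.98 for neuron genes, 0.91 for the Schwann receptors, adhesion molecules and channels, 0.75 for the regulators and 0.55 for myelin genes. S100b (0.34) and Gldn (−0.10) were among the 4 at or below 0.5. With Mbp as reference the myelin genes had a median of 0.78, with 7 of 8 over 0.5, against 8.36% of all genes tested, and S100b had 0.39. Gldn was opposite to Mbp (−0.59). Among the 8 Schwann receptors, adhesion molecules and channels, 7 had r with Dbh over 0.5.

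The relation to S100b was tested over the 12 mice for 6 genes with permutation tests (100000 resamples, two-sided, Benjamini-Hochberg over the 6). They stand for the Schwann lineage, myelin, neurons, white fat, brown fat and cartilage. Sox10 gave r = 0.02 (adjusted permutation p = 0.941), Mbp −0.15 (0.896), Stmn2 0.32 (0.617), Adipoq, the white fat hormone adiponectin, −0.38 (0.617) and Acan, the cartilage proteoglycan aggrecan, 0.10 (0.896). Spearman's rho ran from −0.46 for Adipoq to 0.35 for Stmn2 among these 5, with adjusted permutation p of at least 0.403. Ucp1, the uncoupling protein of brown fat, gave r = 0.77 (permutation p = 0.00523, adjusted 0.0314) and rho = 0.73 (permutation p = 0.0101, adjusted 0.0608). Without A3 and A5, the mice farthest from the median of Ucp1, r was 0.80 (adjusted permutation p = 0.0346).

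This test includes the difference in S100b between the groups, around which the list was built. The relation with Ucp1 did not hold within both groups. Among the 6 controls r was −0.17 (exact permutation p = 0.779) and among the 6 AZ6983 mice 0.83 (exact permutation p = 0.0708), and with group means removed it was 0.62 (adjusted permutation p = 0.401). With group means removed and A5 left out it was −0.06, so the 0.62 rests on A5. Ucp1 itself was 1834 to 3034 CPM in controls and 1228 to 3728 CPM in AZ6983 mice. Its log2 fold change was −0.49 (SE 0.251, edgeR adjusted p = 0.518). Acan reached r = 0.77 (adjusted permutation p = 0.0346) without A2 and A5, its 2 farthest mice, and −0.40 over all mice with group means removed, so its value rests on those mice.

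**Figure D5:**
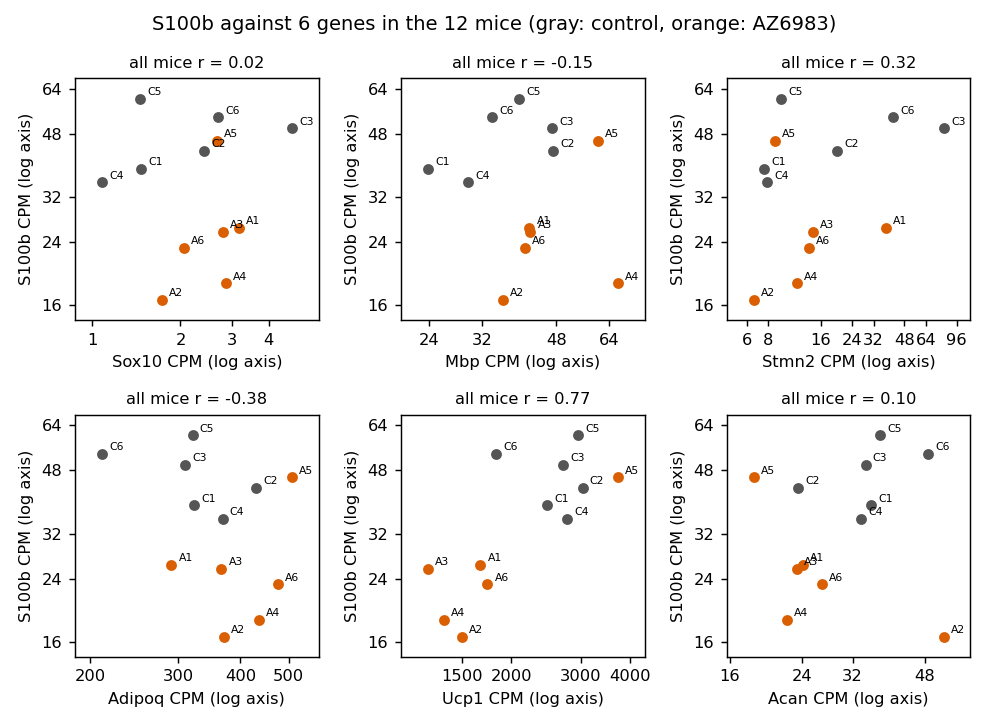
S100b against Sox10, Mbp, Stmn2, Adipoq, Ucp1 and Acan in the 12 mice (CPM on log axes, gray for control and orange for AZ6983, each point labelled with its mouse). With Ucp1 (r = 0.77) most AZ6983 mice lie low on both axes and A5 lies high on both, while with Sox10 (r = 0.02) the groups lie at like Sox10 levels and differ in S100b.

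With a score of another tissue added to the edgeR fit, S100b stayed lower in AZ6983 mice. A score can itself differ between groups. The cartilage score, which includes Col2a1, was 0.91 to 1.91 log2 CPM in controls and 0.71 to 1.30 log2 CPM in AZ6983 mice. Such a fit cannot separate tissue content from group, and the cause was not tested. The log2 fold change was −0.95 with the white fat score, −0.83 with the brown fat score, −0.73 with the cartilage score and −0.85 with the level of Dbh as covariate (edgeR adjusted p 0.388, 0.159, 0.574 and 0.455). In edgeR without covariates, no gene of the white fat, brown fat and cartilage lists was called, as was so for all genes tested. White fat genes had 8 fold changes above 0 and 5 below (median 0.05 on the log2 scale), brown fat genes 5 and 7 (median −0.05), and cartilage genes 4 and 9 (median −0.15). The most abundant were Fabp4 (−0.05), Cfd (0.67), Pnpla2 (0.12) and Plin4 (−0.10) in white fat, Ucp1, Cidea (−0.04), Cox8b (−0.18) and Dio2 (0.12) in brown fat, and Comp (0.16), Acan (−0.34), Hapln1 (−0.36) and Col2a1 in cartilage. Elovl3, a fatty acid elongase of brown fat, was the brown fat gene with r over 0.5 without A5 (0.58) and is named after its values were seen. It was 62.2 to 120 CPM in controls and 19.1 to 80.9 CPM in AZ6983 mice, and its log2 fold change was −0.87 (SE 0.274, edgeR adjusted p = 0.447). Col2a1, the collagen of cartilage, was 0.322 to 27.1 CPM in controls and 0.118 to 1.798 CPM in AZ6983 mice. Its log2 fold change was −4.41 (SE 1.0014, edgeR adjusted p = 0.447). DESeq2 on every gene gave −4.42 for Col2a1 (adjusted p = 0.00654), which passed the 10% FDR. The 10 other S100 genes tested had a median of 0.00. S100a8 and S100a9, the neutrophil members, named after their values were seen, gave 1.77 (SE 0.55) and 1.64 (SE 0.54), both above 0 where S100b was below.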

How the data were processed

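Total RNA of thoracic aorta was depleted of ribosomal RNA, made into stranded libraries and sequenced from both ends by the authors, 1 library per mouse. The submitters' processing notes name CASAVA 1.8.2, STAR 2.5.2b, HTSeq 0.6.1p1 and the mm10 genome. The annotation and the strand setting of the counting are not given in the sources used here. The deposited table holds raw counts per gene symbol, not normalized, for 25284 genes. Another 3 rows that name no gene entered neither library sizes nor tests, among them reads on no gene (8.02% to 14.9% of the reads per mouse).

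Columns were matched to mice by the mouse number in their names. The column used for A1 lacks the first digit of that mouse's number, which no other mouse's number fits, and results without A1 are in the ranges of the closing section. Mice were numbered within groups in the order of their labels, and the numbers pair nothing. The p-values measure the spread between these mice.

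AZ6983 mice were compared with controls by the quasi-likelihood test of edgeR 4.0.16 (R 4.3.3) without covariates, after TMM scaling and the filterByExpr filter, which left 15857 genes. Benjamini-Hochberg adjustment ran over all of these, with 10% FDR as the threshold, as in the study. CPM was scaled by the TMM factors, and log2 CPM used a prior count of 2. The standard error of a log2 fold change was derived from it and from the F statistic of its test. The fit was tested on simulated counts with known changes before use. A tissue score was the mean log2 CPM of its list per mouse. Exon lengths and gene coordinates came from GENCODE M21, and promoters from RefSeq (GRCm38.p6), where 20 of the 32 genes had an entry. Python 3.11.15 and pandas 2.3.3 were used for summaries.

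Alternatives were DESeq2 1.42.0 (the tool of the study), limma-voom (limma 3.58.1), other normalizations, no filter, 5% FDR, covariates (tissue scores, or reads on no gene), and each mouse left out. Fits with the level of Dbh as covariate, fits without C3, C6 and A1, DESeq2 at 5% FDR and correlations without A5 were added after seeing the data. Members, lists and tests were chosen with earlier results of these data known. The genes named were all 32 members, the 10 most like S100b, the 4 most abundant genes of the lists of other Schwann and myelin, other neuron, white fat, brown fat and cartilage genes, the 6 genes of the correlations, Rag1 and Chrna7. A gene that this rule would name is not reported here. Dip2a, Elovl3, S100a8, S100a9, Chat, Slc18a3 and the genes most like Dbh fall outside the rule and were named after their values were seen. Depth sets the precision, so counts are given for genes with few.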

Additional observations from a re-analysis of the deposited data

Results flagged for a closer look

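In 3 cases, 1 AZ6983 mouse lay far from the other 5 by Dixon's criterion for 6 values, and each time it was A2, on the low side. Mal was 2.49 log2 CPM in A2 and 3.11 to 3.43 in the others. Erbb3 was 2.65 log2 CPM in A2 and 3.19 to 3.48 in the others. Cadm4 was 1.69 log2 CPM in A2 and 2.49 to 2.86 in the others. Over the 66 groups of 6 mice looked at, chance alone gives about 1 in 20, or 3.3 cases.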

How the results depend on the processing

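Of the 31 members tested, 15 kept the direction of their fold change in all 25 alternatives, S100b, Gldn, Mbp, Prx and Drp2 among them, and 16 changed it in at least 1. Genes past the threshold numbered 0 in edgeR, 92 in DESeq2 on every gene (34 at 5% FDR), 84 in DESeq2 on the filtered genes, 18 with the brown fat score, 3 with the white fat score, 3 without C3, C6 and A1, and 2 with library totals. Members past it were 0 in edgeR and 2 in both DESeq2 fits at 10% FDR, and 1 member did not overlap without C3, C6 and A1 (Drp2). Leaving out each mouse gave 0 to 27 genes and 0 to 1 members called, with 27 and S100b when A5 was left out. It gave 0 to 1 members without overlap (Gldn without C2, Drp2 without C3, S100b without A5). In each case that mouse alone made the groups overlap, so its removal fixes the outcome. The cause of the differences between alternatives was not tested. The sign of the log2 fold change turned in DESeq2 on every gene for Mal (−0.0043), Egr2 (−3.1e-05). It turned with the level of Dbh as covariate for Ngfr (0.27), Nefl (0.23), Nefm (0.71), Prph (0.077), Dbh (0.024), Snap25 (0.33). For Dbh itself the covariate fixes the value near 0. The others had centred r with Dbh of at least 0.97, so the covariate takes up most of their variation and their turn says nothing. The sign turned with the brown fat score for Mag (−0.0081), Egr2 (−0.0704). It turned with the cartilage score for Cdh19 (0.0396), Mal (−0.021), L1cam (0.17), Ngfr (0.26), Foxd3 (0.30), Nefl (0.39), Nefm (0.68), Prph (0.14), Th (0.18), Dbh (0.046), Snap25 (0.12), Tubb3 (0.037). It turned with library totals only for Mal (−0.0035), Egr2 (−0.0065). It turned in limma-voom for Egr2 (−0.0093), Ngfr (0.32), Nefl (0.32), Nefm (0.65), Prph (0.068), Dbh (0.15), Snap25 (0.88). It turned with no filter on low counts for Mal (−0.011), Egr2 (−0.017). It turned with reads on no gene as covariate for Cdh19 (0.015), Mag (−0.051), Egr2 (−0.026), Foxd3 (0.34). It turned with upper quartile normalization for Egr2 (−0.0061). It turned with the white fat score for Mal (−0.027), Foxd3 (0.021). It turned without C3, C6 and A1 for Cdh19 (0.22), L1cam (0.26), Ngfr (0.66), Foxd3 (0.25), Nefl (0.63), Nefm (1.11), Prph (0.53), Th (0.40), Dbh (0.37), Snap25 (0.72), Tubb3 (0.29). With each mouse left out in turn, it crossed 0 for Sox10 (−0.015 to 0.47), Cdh19 (−0.26 to 0.21), Mal (−0.068 to 0.17), Mag (−0.10 to 0.22), Erbb3 (−0.0057 to 0.36), Egr2 (−0.16 to 0.16), Foxd3 (−0.57 to 0.15), Nefm (−1.94 to 0.0525). For Dbh it ran from −2.29 to −0.43 and for S100b from −1.10 to −0.76. The correlation of S100b changed sign with group means removed for Mbp (0.39) and Acan (−0.40), and that of Ucp1 was then 0.62 and no longer past its threshold (−0.06 without A5 as well). Without the 2 farthest mice it changed sign for Sox10 (−0.19), Mbp (0.23) and Stmn2 (−0.0686) and passed the threshold for Acan (0.77), and without A5 it was −0.0054 for Sox10. No paired analysis was possible because the labels give no pairing of mice.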

Other observations

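Chrna7, the gene of the receptor that AZ6983 acts on, was 1.005 to 3.88 CPM in controls and 0.776 to 2.82 CPM in AZ6983 mice. The log2 fold change was −0.62 (SE 0.417, edgeR adjusted p = 0.591), and without C3, C6 and A1, mice picked as high in neuron genes, it was −0.26. C3, C6 and A1, the mice with the most neuron transcripts, also held the most Chrna7 (3.83, 3.88 and 2.82 CPM). Over the 12 mice Chrna7 and Dbh gave r = 0.72 (permutation p = 0.00809) and rho = 0.75 (permutation p = 0.0070), a relation chosen after both patterns were seen. Without C1 and C3, the mice farthest from the median of Dbh, r was 0.87 (permutation p = 0.00096). Within groups it was 0.81 among the 6 controls (exact permutation p = 0.0583) and 0.80 among the 6 AZ6983 mice (exact permutation p = 0.0556). With group means removed r was 0.78, where 10.7% of all genes tested had r over 0.5 with Dbh. As the pair was picked from these same values, the p-values only describe it and support nothing.

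The 10 genes most like Dbh over mice of the same group were Sult4a1, Ctnna2, Rab3c, Th, Slc7a14, Rit2, Prph, Spock3, Ddc and Slc10a4, with r from 0.996 to 0.998 and fold changes from −1.70 for Rab3c to −1.12 for Prph on the log2 scale.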
